A study of Rattus norvegicus with 8 samples.

Results

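The arms of miR-199a and miR-214, with miR-3120, were measured in cultured mesenchymal stem cells from rat bone marrow (BMSCs), stromal cells able to become bone, cartilage or fat cells. The members were every row of the count table whose name, without the rat prefix and the arm suffix, is miR-199a, miR-214 or miR-3120. That rule found 5 of 487 mature miRNAs: rno-miR-199a-3p, rno-miR-199a-5p, rno-miR-214-3p, rno-miR-214-5p and rno-miR-3120. The tested cells had received dexamethasone, a synthetic glucocorticoid, at 10 µM for 48 h (4 libraries), and the other 4 libraries were BMSCs labelled control, with no vehicle or time in the labels used here. The series asks how miRNA levels change under dexamethasone. Library totals ran from 1377881 to 1521505 counts in dexamethasone and from 1835256 to 2639007 counts in control libraries, so depth and treatment cannot be told apart, although levels were compared as CPM, counts scaled to the library total. Nothing in the labels says that replicates came from separate cultures, so the tests measure only the spread between these libraries, which may be technical. In bulk RNA, fewer cells of a type and less RNA per cell cannot be told apart.

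As background, a microRNA hairpin is cut to a short duplex whose 5p or 3p strand is loaded into Argonaute, and bases 2 to 8 of that strand, the seed, do most of the target pairing. In mouse and human, miR-199a and miR-214 are cut from Dnm3os, a long non-coding RNA read from the strand opposite the dynamin 3 gene Dnm3, and Dnm3os is driven in mesenchyme by the factor Twist1. A further copy of miR-199a in those species lies in Dnm2, so miR-199a reads are not assigned to Dnm3os alone. In mouse, miR-214 is known to restrain bone formation by repressing Atf4, and in human cells miR-199a-3p represses mTOR and MET.

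The mature sequences are shown because the seeds tell which members could share targets. All 5 were matched by name to RefSeq sequences (build GRCr8, whereas the files use another build). They are printed 5′ to 3′ with the seed in capitals.
miR-199a-3p: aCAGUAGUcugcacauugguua
miR-199a-5p: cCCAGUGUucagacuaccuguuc
miR-214-3p: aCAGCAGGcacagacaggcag
miR-214-5p: aGAGUUGUcaugugucu
miR-3120: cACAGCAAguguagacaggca
The 5 seeds were all distinct, and no other of the 694 mature sequences in that RefSeq table carried any of them. Whether each of the other counted miRNAs has a sequence there was not checked.

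The hairpins are shown because miR-3120 and miR-214 come from opposite strands of the same stretch of genome. Both lie on rat chromosome 13 within the annotated span of Dnm3. In GRCr8, the Mir214 hairpin is on the plus strand at chr13:77121645-77121752. The Mir3120 hairpin is on the minus strand, that of Dnm3, at chr13:77121647-77121763. In the sequences below, capitals mark the mature arms.
Mir214: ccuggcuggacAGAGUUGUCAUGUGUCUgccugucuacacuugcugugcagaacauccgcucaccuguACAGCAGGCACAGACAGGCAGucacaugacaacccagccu
Mir3120: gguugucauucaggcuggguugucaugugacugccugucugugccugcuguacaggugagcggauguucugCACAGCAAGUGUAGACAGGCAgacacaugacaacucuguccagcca
The hairpins overlapped over 106 bases and were exact complements at all 106. Mature miR-3120 shared 1 genomic base with miR-214-5p as annotated there and 0 with miR-214-3p. The rest of mature miR-3120 lies opposite the Mir214 bases that directly follow miR-214-5p. Within the Mir214 hairpin, that stretch pairs with miR-214-3p. miR-214-3p and miR-3120 themselves shared a run of 9 bases (agacaggca). Mature miR-199a-3p ended 5329 bases before the Mir214 hairpin, on the same strand.

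The members differed widely in level, although the annotation places miR-199a and miR-214 side by side. rno-miR-199a-3p averaged 110804 ± 2615 CPM in dexamethasone and 97394 ± 1847 CPM in control libraries (SD, n = 4 each). It ranked 3 of 487 in every dexamethasone library and 4 in every control library. rno-miR-199a-5p averaged 8683 ± 372 CPM and 7074 ± 293 CPM in the same groups and ranked between 13 and 18. miR-214-3p ranked between 67 and 90, miR-3120 between 134 and 146 and miR-214-5p between 236 and 306. The order of the 5 levels was the same in each of the 8 libraries, and no neighbours in it overlapped. If each read covers a whole mature miRNA, as a small RNA read does, these CPM levels need no length scaling. The labels name no small RNA library kit, and library preparation captures some miRNAs better than others. The summed level of the 5 was 115447, 122320, 121043 and 120253 CPM in dexamethasone replicates 1 to 4, against 103017, 103269, 107362 and 105432 CPM in control replicates 1 to 4. All dexamethasone sums lay above all control sums, and miR-199a-3p made up 92.4 to 92.7% of the sum in dexamethasone and 92.8 to 93.2% in control libraries.

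**Figure D1:**
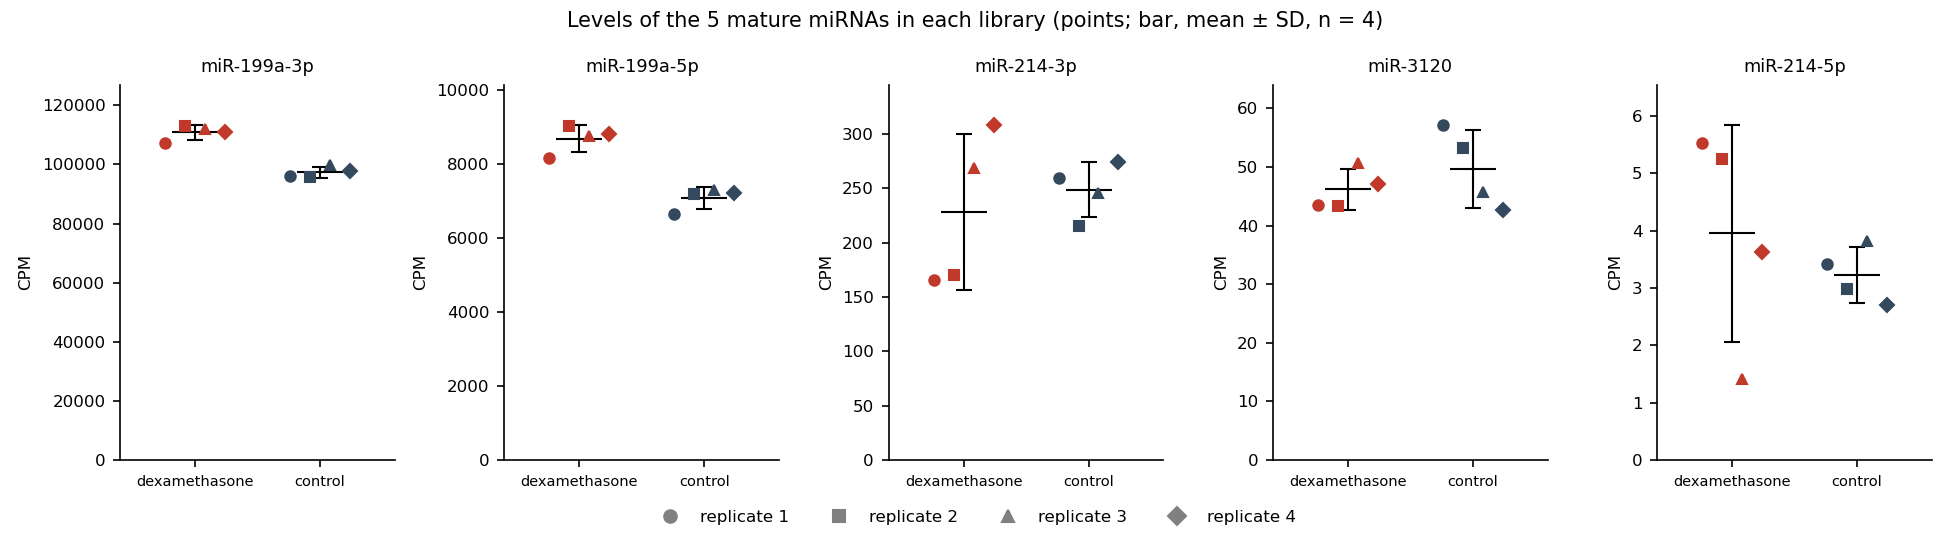
Level of each member in CPM (y axis, from 0) in the 4 dexamethasone and 4 control libraries, with points by replicate and bars for mean ± SD. The groups are apart for both miR-199a arms and overlap for miR-214-3p, miR-3120 and miR-214-5p, and dexamethasone replicates 1 and 2 lie lowest for miR-214-3p at 166 and 170 CPM.

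Both arms of miR-199a rose under dexamethasone, by small amounts. For rno-miR-199a-3p the levels were 107075, 113070, 111984 and 111088 CPM in dexamethasone replicates 1 to 4, against 96057, 95823, 99783 and 97913 CPM in control replicates 1 to 4. For rno-miR-199a-5p, which in rat heart muscle cells is known to repress the hypoxia factor Hif1a, they were 8157, 9031, 8738 and 8806 CPM with dexamethasone and 6640.4, 7175, 7284 and 7199 CPM in control. Every dexamethasone library lay above every control library for both arms. The log2 fold change was 0.21 ± 0.03 for miR-199a-3p, a 1.16-fold rise (SE, edgeR quasi-likelihood test, adjusted p = 3.44e-04), and 0.32 ± 0.05 for miR-199a-5p, a 1.25-fold rise (SE, edgeR adjusted p = 1.51e-04).

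Of the 4 members that passed the abundance filter, 2 passed the test (adjusted p below 0.05) and both were higher. Over all 245 tested miRNAs 46.1% were called, 24.9% as higher and 21.2% as lower, so a count of 2 in 4 is close to the background. The groups did not overlap in these same 2 members, against 42.0% of all tested miRNAs (21.6% with dexamethasone higher). The change of miR-199a-3p was smaller in size, in either direction, than that of most tested miRNAs: 37.1% had a smaller absolute log2 fold change. Upper quartile scaling shifted the median of all log2 fold changes by -0.15 and turned 61 higher and 52 lower calls into 41 and 71; with it, miR-199a-3p was at 0.06 and did not pass (edgeR adjusted p = 0.415). miR-199a-5p stayed past the threshold there at 0.17 (edgeR adjusted p = 0.0468). In the authors' deposited table the adjusted p was 0.0122 for miR-199a-3p and 1.92e-05 for miR-199a-5p.

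**Figure D2:**
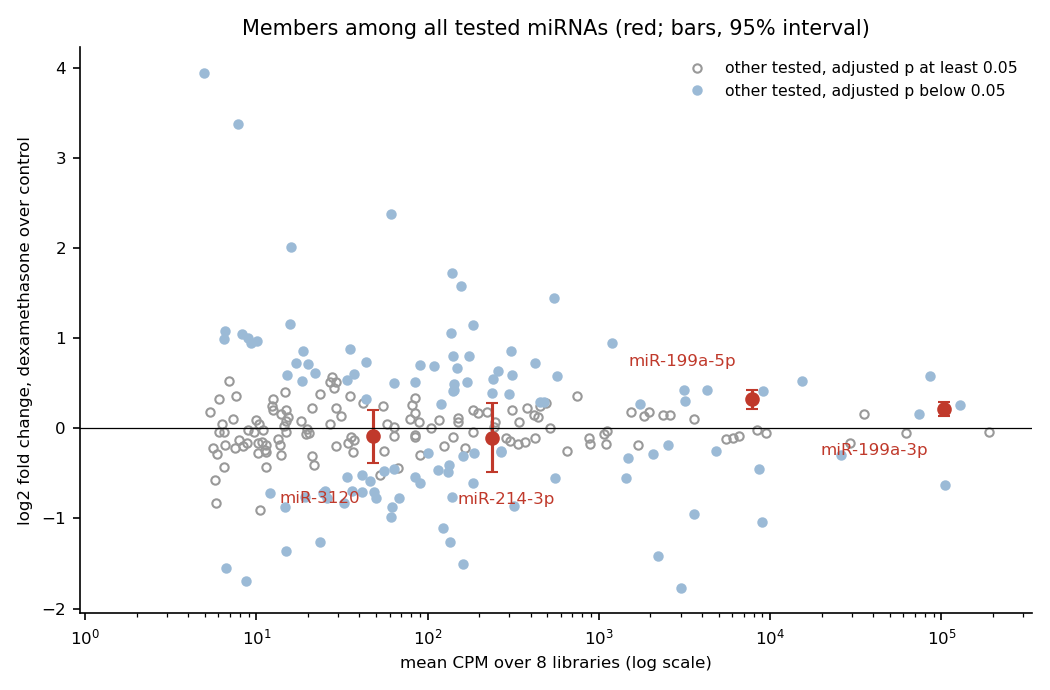
Log2 fold change, dexamethasone over control (y axis), against mean CPM on a log scale (x axis) for the 245 tested miRNAs, with the 4 tested members in red and their 95% intervals. The miR-199a arms sit above 0 at 0.21 and 0.32, and the intervals of miR-214-3p and miR-3120 span 0.

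The balance of the miR-199a arms can be read without any scaling between libraries, since both are counted in the same library. Because reads from further copies may enter either count, it is not necessarily the balance of 1 hairpin. There were 7.62, 7.99, 7.80 and 7.93 counts of miR-199a-5p per 100 of miR-199a-3p in dexamethasone replicates 1 to 4, against 6.91, 7.49, 7.30 and 7.35 in control replicates 1 to 4. All 4 dexamethasone ratios lay above all 4 control ratios. How many other ratios were apart in this way was not counted, while the levels in CPM of 42.0% of tested miRNAs were. The shift was small, with a log2 change in the ratio of 0.11 ± 0.05 (SE). It missed the threshold in a limma fit of the ratio of each of 244 miRNAs to miR-199a-3p (adjusted p = 0.0917, unadjusted 0.0496), in which 48.8% of ratios passed, 14.3% as higher and 34.4% as lower. Without dexamethasone replicate 1 it passed (0.12, limma adjusted p = 0.0370). The 3p arm was the abundant one in each library, as it was in 20 of the 53 hairpins with both arms tested, while the 5p arm was the higher in 33. The mean log2 ratio of 5p to 3p was -3.73 for miR-199a, the 11th lowest of the 53. Its change of 0.11 compared with a median absolute change of 0.27 over those hairpins.

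rno-miR-214-3p did not pass the test, and its level was split among the dexamethasone libraries. It had 166, 170.2, 269 and 308 CPM in dexamethasone replicates 1 to 4 (240, 259, 382 and 425 counts), against 259.6, 215, 246 and 275 CPM in control replicates 1 to 4. Dexamethasone replicates 1 and 2 lay below all 4 controls, replicate 3 lay among them and replicate 4 above them. The log2 fold change was -0.10 ± 0.17 (SE, 95% interval -0.48 to 0.28, edgeR adjusted p = 0.672). Its value rested on single libraries: it was 0.0046 without dexamethasone replicate 1, -0.0049 without replicate 2 and -0.25 without replicate 4 (edgeR adjusted p = 0.980, 0.983 and 0.159).

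The spread of miR-214-3p was larger than counting gives. Its coefficient of variation was 31.3% in dexamethasone and 10.2% in control libraries, where counting alone would give 5.66% and 4.26%. Among the 70 tested miRNAs with a mean of 100 to 1000 CPM, a set chosen after these values were seen, the median was 10.0% in dexamethasone and 7.79% in control libraries. In that set 3 miRNAs varied more than miR-214-3p among the dexamethasone libraries. For comparison, the coefficients of variation of miR-199a-3p were 2.36% and 1.90%, and those of miR-199a-5p were 4.29% and 4.14%, in dexamethasone and control libraries.

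rno-miR-3120, which in human and mouse is made with Dnm3 and is known to act on clathrin uncoating factors in neurons, did not pass either. Its levels were 43.5, 43.4, 50.7 and 47.2 CPM in dexamethasone replicates 1 to 4 (63 to 72 counts), against 57.2, 53.2, 45.8 and 42.7 CPM in control replicates 1 to 4 (84 to 151 counts). The groups overlapped, and control replicates 1 and 2 were the highest of the 8. The log2 fold change was -0.09 ± 0.14 (SE, 95% interval -0.38 to 0.20, edgeR adjusted p = 0.629). Its coefficient of variation, 7.52% in dexamethasone and 13.4% in control libraries, was near the 12.3% and 9.56% of counting alone.

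rno-miR-214-5p, the rarer of the named miR-214 arms, was too rare for the filter and was left out of the main test. It had 8, 8, 2 and 5 counts in dexamethasone replicates 1 to 4 and 9, 7, 7 and 6 counts in control replicates 1 to 4, or 1.41 to 5.52 CPM and 2.70 to 3.81 CPM. The dexamethasone range enclosed the control range. With no filter the edgeR adjusted p was 0.677, for a log2 fold change of 0.32 ± 0.49 (SE). Summed over libraries, there were 23 counts of miR-214-5p beside 1306 of miR-214-3p in dexamethasone and 29 beside 2252 in control. As printed above, most bases of miR-214-5p lie before the hairpin stretch that pairs with miR-214-3p. These counts are therefore not read as an arm balance.

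Ratios of miR-214-3p and miR-3120 to miR-199a-3p within libraries did not pass the test. There were 1.55, 1.51, 2.40 and 2.78 counts of miR-214-3p per 1000 of miR-199a-3p in dexamethasone replicates 1 to 4, and 2.70, 2.24, 2.46 and 2.80 in control replicates 1 to 4. The groups overlapped, and the log2 change of the ratio was -0.36 ± 0.18 (SE, limma adjusted p = 0.118, 95% interval -0.74 to 0.03). It passed at -0.52 without dexamethasone replicate 4 (limma adjusted p = 0.0109). miR-3120 per 1000 of miR-199a-3p was 0.384 to 0.452 in dexamethasone and 0.436 to 0.596 in control libraries, with a log2 change of -0.28 ± 0.13 (SE, limma adjusted p = 0.108). So 0 of the 3 ratios of members to miR-199a-3p passed, in a fit in which 48.8% of all 244 ratios did. Their unadjusted limma p-values lay between 0.0496 and 0.0677, for ratios that share 1 denominator and differ in sign.

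Against miR-199a-5p, the arm with the larger rise, the ratios of both other members were lower under dexamethasone. These ratios hold the rise of their denominator, whose log2 fold change was 0.32. The log2 fold changes of miR-214-3p and miR-3120 themselves, -0.10 and -0.09, did not pass. miR-214-3p per 100 of miR-199a-5p was 2.03, 1.88, 3.08 and 3.50 in dexamethasone replicates 1 to 4, against 3.91, 2.997, 3.37 and 3.81 in control replicates 1 to 4. The groups overlapped. The log2 change was -0.47 ± 0.17 (SE, limma adjusted p = 0.0370), in a fit in which 50.4% of the 244 ratios passed, 40.6% as lower. For miR-3120 it was -0.39 ± 0.15 (SE, limma adjusted p = 0.0394). Both calls depended on single libraries: miR-214-3p lost its call without dexamethasone replicate 1 or 2 or control replicate 1 or 4, and miR-3120 without dexamethasone replicate 1, 2 or 4 or control replicate 1 or 2 (limma adjusted p up to 0.117 and 0.133). miR-3120 was 15.3 to 26.3 counts per 100 of miR-214-3p in dexamethasone and 15.5 to 24.8 in control libraries, so this pair from opposite strands overlapped widely.

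**Figure D3:**
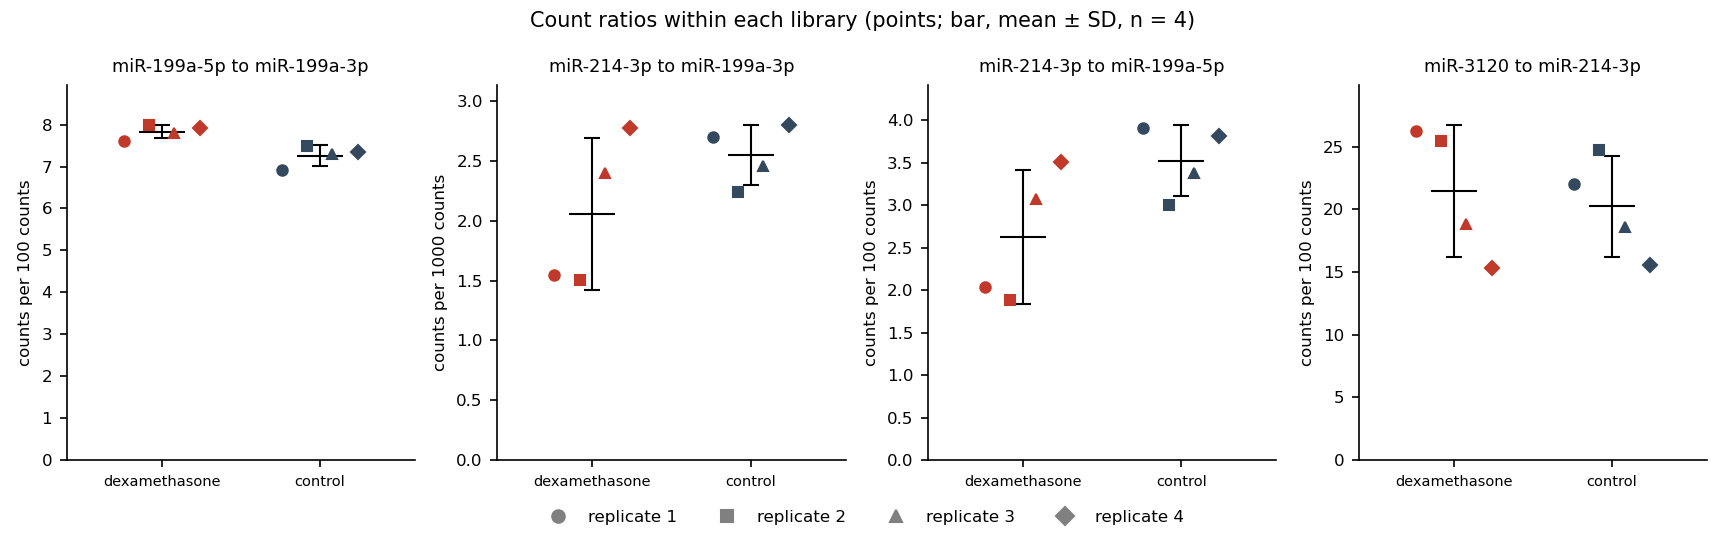
Count ratios within each library (y axes, counts per 100 or per 1000 counts, from 0), with points by replicate and bars for mean ± SD of 4 libraries. The ratio of the miR-199a arms is apart between groups, at 7.62 to 7.99 with dexamethasone and 6.91 to 7.49 in control, and the other 3 ratios overlap.

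**Figure D4:**
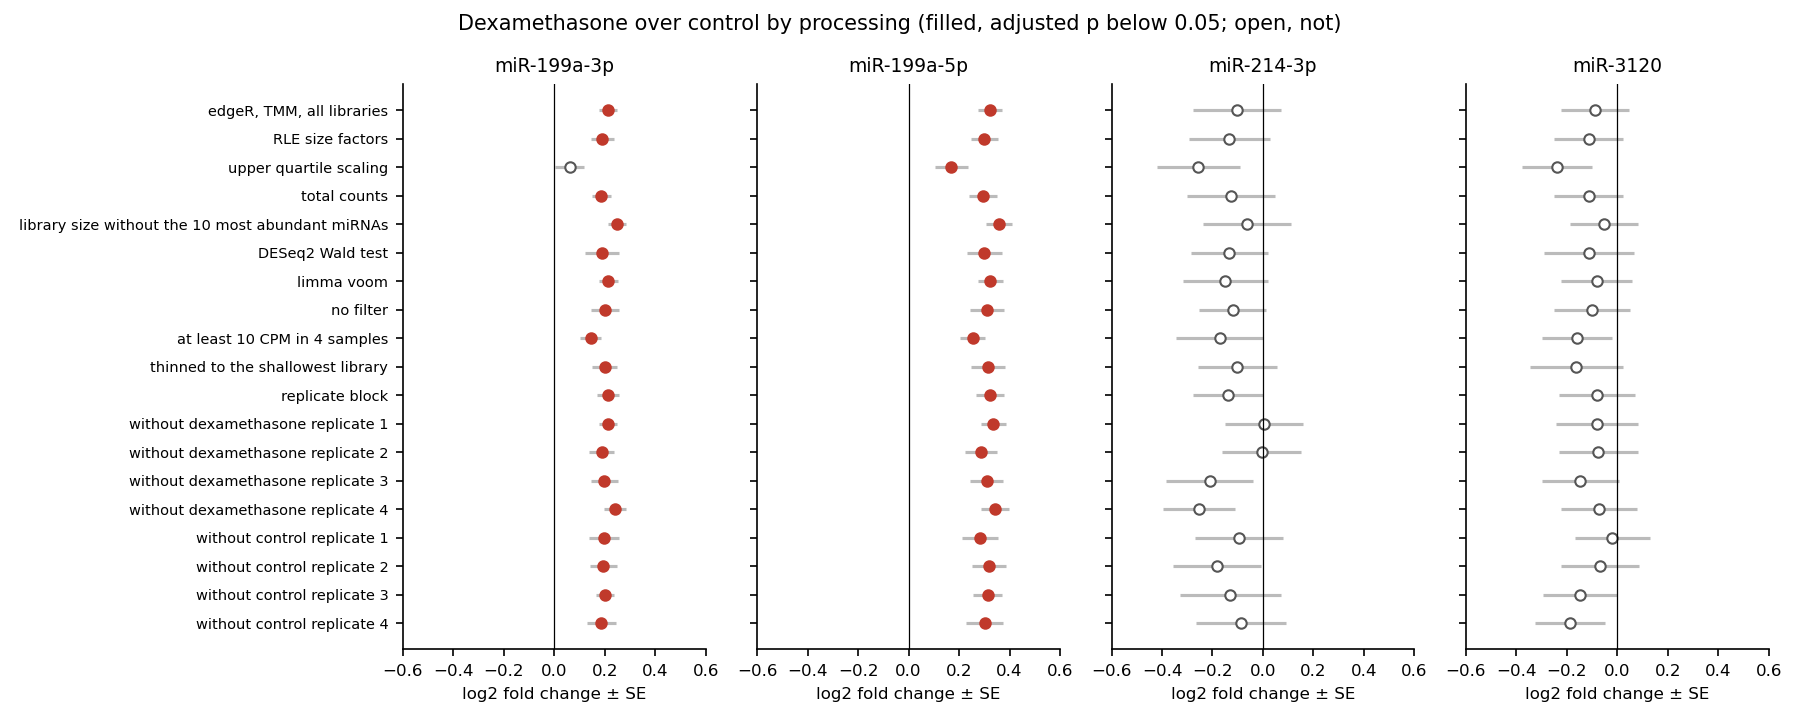
Log2 fold change ± SE, dexamethasone over control (x axis), for the 4 tested members under each processing choice (rows), filled where the adjusted p was below 0.05. miR-199a-5p is filled in all rows, miR-199a-3p in all but upper quartile scaling at 0.06, and miR-214-3p and miR-3120 in none.

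Likeness of profile was measured as the root mean square difference of log2 CPM, each miRNA centred on its mean, over the 8 libraries, among tested miRNAs of at least 100 CPM. The closest profile to miR-199a-5p was miR-199a-3p, at 0.065. The closest to miR-199a-3p were let-7d-5p (0.053), miR-155-5p (0.058) and miR-93-5p (0.065), and miR-199a-5p was at 0.065. miR-29b-3p was also near miR-199a-5p (0.072). The members themselves were farther apart across hairpins: miR-214-3p differed by 0.34 from miR-199a-3p and by 0.29 from miR-3120. miR-3120 was nearer to miR-199a-3p, at 0.20, than to miR-214-3p. Such a difference also holds each miRNA's own spread between libraries. The nearest to miR-3120 were miR-328a-3p (0.096), let-7c-5p (0.126) and miR-106b-3p (0.127).

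The nearest profiles to miR-214-3p were miR-872-5p (0.121), miR-99a-5p (0.145) and miR-423-3p (0.154). They were picked for their likeness to miR-214-3p over these same libraries, so their shared pattern is a description. miR-872-5p had 1230.0, 1328, 1743 and 1956 CPM in dexamethasone replicates 1 to 4, against 1970.1, 1685, 1805 and 1766 CPM in control replicates 1 to 4. miR-99a-5p had 845, 911, 1165 and 1175 CPM with dexamethasone, against 1296, 1041, 1150.2 and 1214 CPM in control. In each of these, dexamethasone replicates 1 and 2 lay below all controls. None of the 3 passed the test (edgeR adjusted p = 0.243, 0.202 and 0.884). Dexamethasone replicate 1 also differed most from the other libraries of its group over all miRNAs, with a chi-square per degree of freedom of 37.0 to 48.6, against 7.56 to 20.5 among the other 3 dexamethasone libraries and 8.96 to 20.3 among controls.

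**Figure D5:**
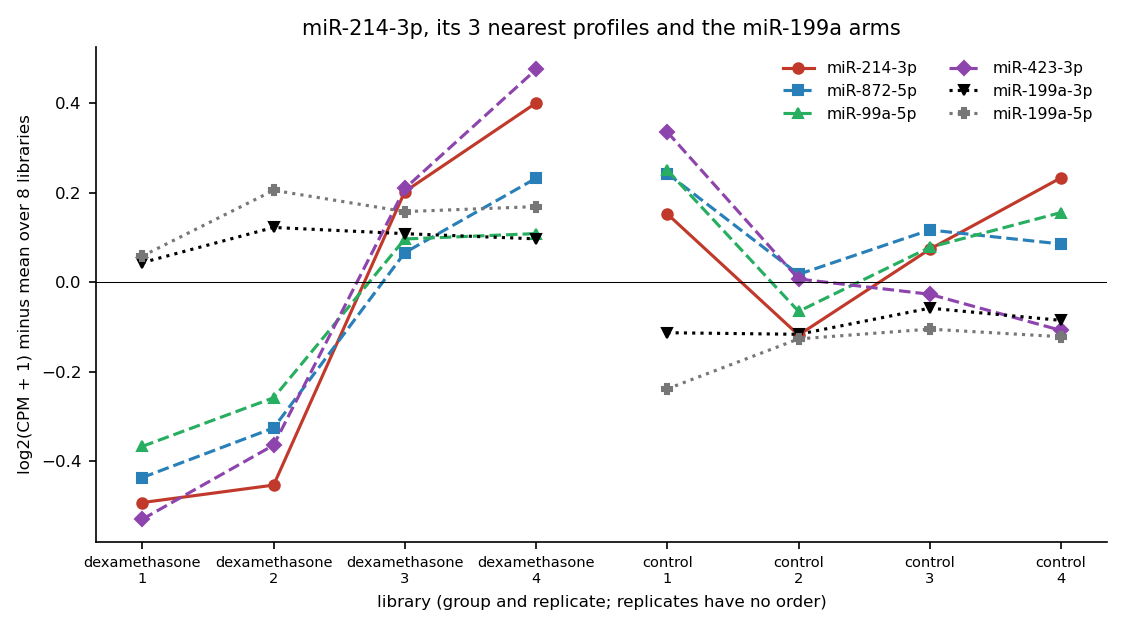
Log2(CPM + 1) minus its mean over the 8 libraries (y axis) in each library (x axis, dexamethasone replicates then control replicates; lines only join points of 1 miRNA) for miR-214-3p, its 3 nearest profiles and the miR-199a arms. miR-214-3p, miR-872-5p, miR-99a-5p and miR-423-3p are lowest in dexamethasone replicates 1 and 2, and both miR-199a arms lie above 0 in all dexamethasone and below 0 in all control libraries.

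In 2 lists of other miRNAs linked to the same biology, the share called was read against the 46.1% of all tested miRNAs. Of 15 tested arms of mesenchymal and stromal miRNAs other than the members, 2 rose and 5 fell, a share near that background, with a median log2 fold change of -0.17 against 0.0049 over all miRNAs. The rises were miR-125b-5p, encoded in clusters with let-7 genes, at 0.26 ± 0.06, and miR-21-5p, a miRNA of fibrosis, at 0.58 ± 0.06 (log2 changes with SE; adjusted p in edgeR 0.00329 and 1.29e-05). miR-143-3p, of the smooth muscle cluster, fell by 0.30 on the log2 scale (edgeR adjusted p = 0.00525), opposite in sign to miR-199a. Of 5 tested arms of miRNAs listed as restraining osteoblast formation, as miR-214 does in mouse, 2 rose and 3 fell. The falls include both arms of miR-31a, and the median of -0.88 is the value of miR-31a-3p. With 5 arms, nothing is read from that count against the background. miR-206-3p, the largest rise among them, was at 235 ± 39.4 CPM in dexamethasone and 80.0 ± 15.3 CPM in control (SD, n = 4 each; log2 change 1.58, adjusted p in edgeR 8.75e-06). miR-31a-5p had a log2 fold change of -1.04 ± 0.06 (SE, adjusted p in edgeR 5.06e-08). Both lists hold miR-125b.

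Among the cell type markers, the mesenchymal ones were by far the most abundant. The 8 arms of miR-199a, miR-214, miR-143 and miR-145 summed to 141508 to 144321 CPM in dexamethasone and 131606 to 137236 CPM in control libraries. Most of that sum was miR-199a-3p itself, and without the members the 4 arms of miR-143 and miR-145 lay the other way, at 21550.5 to 26105 CPM in dexamethasone and 28391 to 29919.5 CPM in control libraries, with 0 higher, 2 lower and 2 not passing. The 7 arms of haematopoietic markers summed to 50.4 to 68.2 CPM and 36.4 to 47.7 CPM, with miR-142-3p higher (edgeR adjusted p = 0.00479) and miR-451-5p below 1 CPM on average in both groups. The 7 epithelial arms summed to 5.52 to 10.5 CPM and 4.49 to 8.09 CPM, and the 2 neural arms to 15.2 to 29.6 CPM and 15.3 to 27.3 CPM. Both arms of the endothelial miR-126a were lower, summing to 1163 to 1331 CPM in dexamethasone and 1790.1 to 2000.3 CPM in control libraries. The 6 skeletal muscle arms, chiefly miR-206-3p, summed to 217 to 304 CPM and 67.0 to 97.1 CPM. The part of these other cell types in the changes of miR-199a was not tested.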

How the data were processed

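Rat BMSC miRNA libraries (4 dexamethasone, 4 control, grouped by sample titles) were analysed from 1 table of 487 mature miRNAs. Per the labels' protocols, RNA came from a Qiagen miRNA kit and libraries from a VAHTS total RNA kit; a small RNA kit is not named. The submitters' processing notes name Bowtie 1.0 and mRatBN7.2; the counter, the annotation release and the handling of multiply matching reads are absent from the sources used here. The deposited values are whole-number counts and the authors' CPM, which equal count over column total to within 4.98e-05, and the deposited table's log2 fold change and p-values come from a test not named in these sources. The count test was edgeR 4.0.16 under R 4.3.3 (quasi-likelihood fit with TMM factors, the filterByExpr filter and group alone as term, Benjamini-Hochberg over 245 miRNAs, threshold 0.05); standard errors are the log2 fold change over the square root of F. The log2 ratio of every tested miRNA to miR-199a-3p (prior count 1) was fitted with limma 3.58.1 (trend) and adjusted over 244 ratios, with miR-199a-5p as another denominator. DESeq2 1.42.0 and limma voom were alternatives. Both fits were tested on simulated data. No pair of libraries in a group differed by as little as sampling noise. Members and lists were chosen with earlier results of these data known. Named beside the members were the 3 nearest profiles of each tested member, seed relatives and the 2 most abundant tested arms of each list, of which 1 is not reported here; miR-143-3p, miR-206-3p and the markers were named after their values were seen. Counting errors cover counting only, since reads carry no molecular identifiers.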

Additional observations from a re-analysis of the deposited data

Results flagged for a closer look

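miR-199a-5p in control replicate 1, at 6640.4 CPM, stood apart from the other 3 controls at 7175 to 7284 CPM. Its gap to the nearest control was 0.830 of the group's range, just past Dixon's 95% critical value for 4 libraries. Of 24 sets of 4 values checked (levels, ratios and the summed level), it alone was past that value, and chance gives about 1 in 20. Without control replicate 1, miR-199a-5p was still higher under dexamethasone (log2 fold change 0.28, edgeR adjusted p = 0.00525).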

How the results depend on the processing

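miR-199a-5p kept its direction and its call under all 18 alternatives (log2 fold change 0.17 to 0.36), and miR-199a-3p under 17, missing the threshold with upper quartile scaling (0.061). miR-3120 stayed below 0 and did not pass in any (-0.24 to -0.02). miR-214-3p did not pass in any, and without dexamethasone replicate 1 its sign turned (0.0046). With each library left out in turn, the log2 fold changes were 0.19 to 0.24 for miR-199a-3p, 0.28 to 0.34 for miR-199a-5p, -0.25 to 0.0046 for miR-214-3p and -0.19 to -0.02 for miR-3120. The calls over all miRNAs were 41 to 70 higher and 45 to 71 lower across alternatives. The log2 ratios to miR-199a-3p were 0.086 to 0.12 for miR-199a-5p, -0.52 to -0.22 for miR-214-3p and -0.35 to -0.20 for miR-3120 with each library left out; with miR-199a-5p as the denominator, miR-214-3p (-0.47) and miR-3120 (-0.39) passed. Those 2 ratios to miR-199a-5p were -0.62 to -0.32 and -0.47 to -0.29 with each library left out, an alternative chosen after seeing the data. No pairing by replicate number was seen (correlations of deviations of same-numbered libraries -0.21 to 0.08), though so few libraries cannot exclude it. With a replicate block the log2 fold changes were 0.21 for miR-199a-3p, 0.32 for miR-199a-5p, -0.14 for miR-214-3p and -0.08 for miR-3120, with no call changed, and the ratio of miR-3120 to miR-199a-5p (-0.39) lost its call (limma adjusted p = 0.0625). Where a value moved, the cause was not tested. With counts thinned to the shallowest library, miR-199a-3p was at 0.20 and miR-199a-5p at 0.31 (edgeR adjusted p = 0.00376 and 0.00114). There miR-214-3p (-0.10) and miR-3120 (-0.16) did not pass. Depth limits miR-214-5p, with 2 to 9 counts a library, and miR-3120, with 63 to 151.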
